A study of Mus musculus with 24 samples.

Results

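Granule neurons of the dentate gyrus, named Exc-DG by the authors, were studied in the ventral hippocampus of male mice. They were compared with the other excitatory neurons and with some of the remaining cell types of that tissue. The members are the sums of counts over all nuclei with this name in each library. By the authors' numbers of nuclei, these are 5101 of 30880 nuclei in single-nucleus RNA sequencing (snRNA-seq) and 6256 of 27206 nuclei in single-nucleus sequencing of open chromatin (snATAC-seq). The mice came from 2 inbred strains, C57BL/6J (B6) and DBA/2J (D2), aged 10 to 16 weeks and with no treatment named in the labels, and each strain gave 2 libraries per assay with tissue of about 2 animals combined in a library. The snRNA-seq nuclei were sorted to enrich nuclei that carry the neuronal protein NeuN and the snATAC-seq nuclei were not, so shares of nuclei were not compared between assays. Exc-DG was set within each library against 7 other excitatory types. The authors named these Exc-CA1-Galntl6, Exc-CA1-Fras1, Exc-CA1-Camk2d, Exc-CA3, Exc-ENT, Exc-Gpc6 and Exc-Cdh12. In snRNA-seq, Exc-DG was also set against 6 of the 9 non-excitatory types. These were Inh-MGE interneurons, astrocytes, oligodendrocytes, their precursors, microglia, and vascular and leptomeningeal cells. The other non-excitatory types were not used, so comparisons with all cell types leave them out.

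Granule neurons are the principal cells of the dentate gyrus. They receive the cortical input to the hippocampus from the entorhinal cortex, and their axons, the mossy fibres, carry large zinc-rich glutamatergic terminals onto CA3 pyramidal neurons. The homeodomain factor Prox1 is needed to form and keep their identity, and new granule neurons are added to the adult dentate gyrus.

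Levels are given as CPM, the usual depth-scaled count, which is the count divided by the TMM-normalised total of its column and put on a common scale. A difference is Exc-DG minus the unweighted mean of the 7 other excitatory types on the log2 scale, from a quasi-likelihood fit in edgeR with the library as a block. It was called higher or lower when it passed a test against an absolute log2 difference of 1 at an adjusted p under 0.05. The nuclei had been clustered on these same transcripts, and the chromatin labels had been transferred from them, so the calls describe how far 4 libraries agree and are no independent test of the cell type. In sums over nuclei, fewer nuclei with a transcript and less transcript per nucleus cannot be told apart. Exc-DG columns held from 7895793 to 11352265 transcript counts and from 18111758 to 27815541 peak counts. Over the 16036 symbols tested, the correlation of log2 CPM across symbols lay between 0.96 and 0.99 for the 6 pairs of Exc-DG libraries. Within a library, where columns share the preparation but not the depth, Exc-DG correlated with the other excitatory types at 0.84 to 0.91.

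The regions of open chromatin that stood furthest above the other excitatory types at the marker genes are shown first, because they give the sequence behind the accessibility values below. They come from RefSeq's GRCm38 sequence and are written 5′ to 3′ on the strand of the named gene, with capitals for CAGATG on either strand, an E-box of the type bound by NeuroD factors. At Prox1, the centre of the peak in an intron, 27.8 kb from the start of the gene, is at chr1:190142753-190143052 on the minus strand. At the antisense gene Prox1os, which starts beside Prox1 and runs the other way, the whole peak in an intron is at chr1:190173603-190173855 on the plus strand. At Glis3, the centre of the peak in an intron, 352 kb from the start, is at chr19:28328262-28328561 on the minus strand.
Prox1 intron: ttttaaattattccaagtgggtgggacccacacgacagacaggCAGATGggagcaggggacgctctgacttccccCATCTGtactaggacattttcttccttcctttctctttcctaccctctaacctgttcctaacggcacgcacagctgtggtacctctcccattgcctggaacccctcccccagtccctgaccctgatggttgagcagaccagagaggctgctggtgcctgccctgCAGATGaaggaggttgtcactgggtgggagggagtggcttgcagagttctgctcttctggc
Prox1os intron: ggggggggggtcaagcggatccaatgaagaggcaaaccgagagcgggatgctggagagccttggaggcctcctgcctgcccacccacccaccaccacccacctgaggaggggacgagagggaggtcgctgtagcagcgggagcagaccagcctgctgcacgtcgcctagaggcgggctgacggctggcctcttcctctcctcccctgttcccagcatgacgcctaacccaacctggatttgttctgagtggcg
Glis3 intron: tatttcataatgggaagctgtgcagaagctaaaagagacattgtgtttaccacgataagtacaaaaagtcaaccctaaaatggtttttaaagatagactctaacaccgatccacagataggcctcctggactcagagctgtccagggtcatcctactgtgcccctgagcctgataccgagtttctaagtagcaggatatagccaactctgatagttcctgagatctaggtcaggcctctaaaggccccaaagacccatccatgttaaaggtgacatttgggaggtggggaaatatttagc
For Prox1, C1ql2 and Dsp the 250 bases before the RefSeq start are shown, at chr1:190170828-190171077 (minus strand), chr1:120340332-120340581 (plus strand) and chr13:38151044-38151293 (plus strand), since each lies inside or reaches into the peak with the most Exc-DG counts at its gene.
Prox1 upstream: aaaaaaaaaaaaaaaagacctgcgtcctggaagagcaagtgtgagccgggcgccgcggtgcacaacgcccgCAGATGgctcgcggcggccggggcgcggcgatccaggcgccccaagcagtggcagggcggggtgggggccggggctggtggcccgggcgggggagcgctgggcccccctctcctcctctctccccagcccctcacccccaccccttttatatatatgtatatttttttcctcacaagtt
C1ql2 upstream: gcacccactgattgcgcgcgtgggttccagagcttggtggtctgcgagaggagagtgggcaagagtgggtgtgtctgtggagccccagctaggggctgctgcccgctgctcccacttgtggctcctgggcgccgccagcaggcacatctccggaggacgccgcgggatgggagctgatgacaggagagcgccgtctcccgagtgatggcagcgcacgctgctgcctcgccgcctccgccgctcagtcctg
Dsp upstream: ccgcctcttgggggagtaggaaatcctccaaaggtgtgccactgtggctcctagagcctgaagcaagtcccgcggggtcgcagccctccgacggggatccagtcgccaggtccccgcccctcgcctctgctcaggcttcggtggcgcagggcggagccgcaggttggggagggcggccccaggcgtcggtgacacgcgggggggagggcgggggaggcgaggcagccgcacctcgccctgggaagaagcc
The intronic Prox1 region held 3 matches to CAGATG and the Prox1 upstream region held 1, while the other 4 sequences held 0. Of all 250-base windows before a RefSeq start, 27025 in all, 14.5% held a match, and of the central 300 bases of all peaks tested, 32.1% did. A match is only a run of letters, and no binding was measured.

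Exc-DG carried the transcripts that its label leads one to look for. Prox1 reached 317 and 337 CPM in the libraries of B6 and 248 and 247 CPM in those of D2. In the 28 columns of other excitatory types it lay between 0.852 and 5.89 CPM (median 2.21). Every Exc-DG library was far above every other excitatory column, and the difference was 6.77 (SE 0.08) on the log2 scale. C1ql2, a secreted synaptic organiser of mossy fibre synapses, stood at 34.4, 31.8, 21.1 and 27.4 CPM (B6, B6, D2, D2; the libraries are given in this order throughout) against 0.697 to 11.1 CPM elsewhere, a log2 difference of 3.41 (SE 0.12). Dsp, which encodes the desmosomal protein desmoplakin, stood at 33.6, 29.4, 23.8 and 22.8 CPM. It had no count in 18 of the 28 other excitatory columns and at most 0.963 CPM in the rest, a log2 difference of 7.30 (SE 0.22). All 3 were above every other excitatory type in each library, as were 8.01% of the symbols tested.

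All 13 granule neuron markers on the list were called higher, where 5.57% of the 16036 symbols tested were called higher, and all 13 were above every other excitatory type in each of the 4 libraries. Some of these markers were known from earlier views of these data. The median log2 difference of the list was 4.08, against 0.02 over all symbols. Summed over the list, the Exc-DG columns stood at 5554 to 6848 CPM and the other excitatory columns at 244 to 944 CPM. Among the markers not yet named, Calb1, the calcium buffer calbindin, stood at 126, 117, 121 and 122 CPM. The other excitatory columns lay at 1.76 to 65.7 CPM, a log2 difference of 3.30 (SE 0.08). Rfx3, a transcription factor of the RFX family, stood at 1352 to 1646 CPM against 96.6 to 506 CPM. Tdo2, the tryptophan dioxygenase, was scarce, at 5.70 to 12.2 CPM against 0 to 2.36 CPM in the other excitatory columns. Its log2 difference was 3.94 (SE 0.20). On the scale of all cell types it stood at 10.5 to 13.6 CPM in astrocytes and 5.99 to 12.9 CPM in Exc-DG.

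A total of 893 symbols were called higher in Exc-DG and 1004 were called lower (6.26%). Of these, 562 (3.5% of all tested) were also above every other excitatory type within each library, and 448 (2.79%) were also below. Without a model, 1285 symbols were highest in Exc-DG in every library and 874 (5.45%) were lowest. The median log2 differences of the 562 and 448 symbols were 2.10 and -2.10. Protein-coding genes made up 76.98% of the annotated symbols among the 562 and 76.75% of those among the 448, against 82.95% of all annotated symbols tested. For 168 of the 562 (29.9%) the next highest excitatory type was Exc-CA3, more often than any other type, and Exc-Gpc6 followed with 96. At the low end, Exc-CA3 was also the next lowest type most often, for 147 of the 448 (32.8%). When the other excitatory types were summed per library instead of averaged with equal weight, 758 symbols were called higher and 1500 lower, so the share of calls that were higher was 33.6% and not 47.1%.

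**Figure D1:**
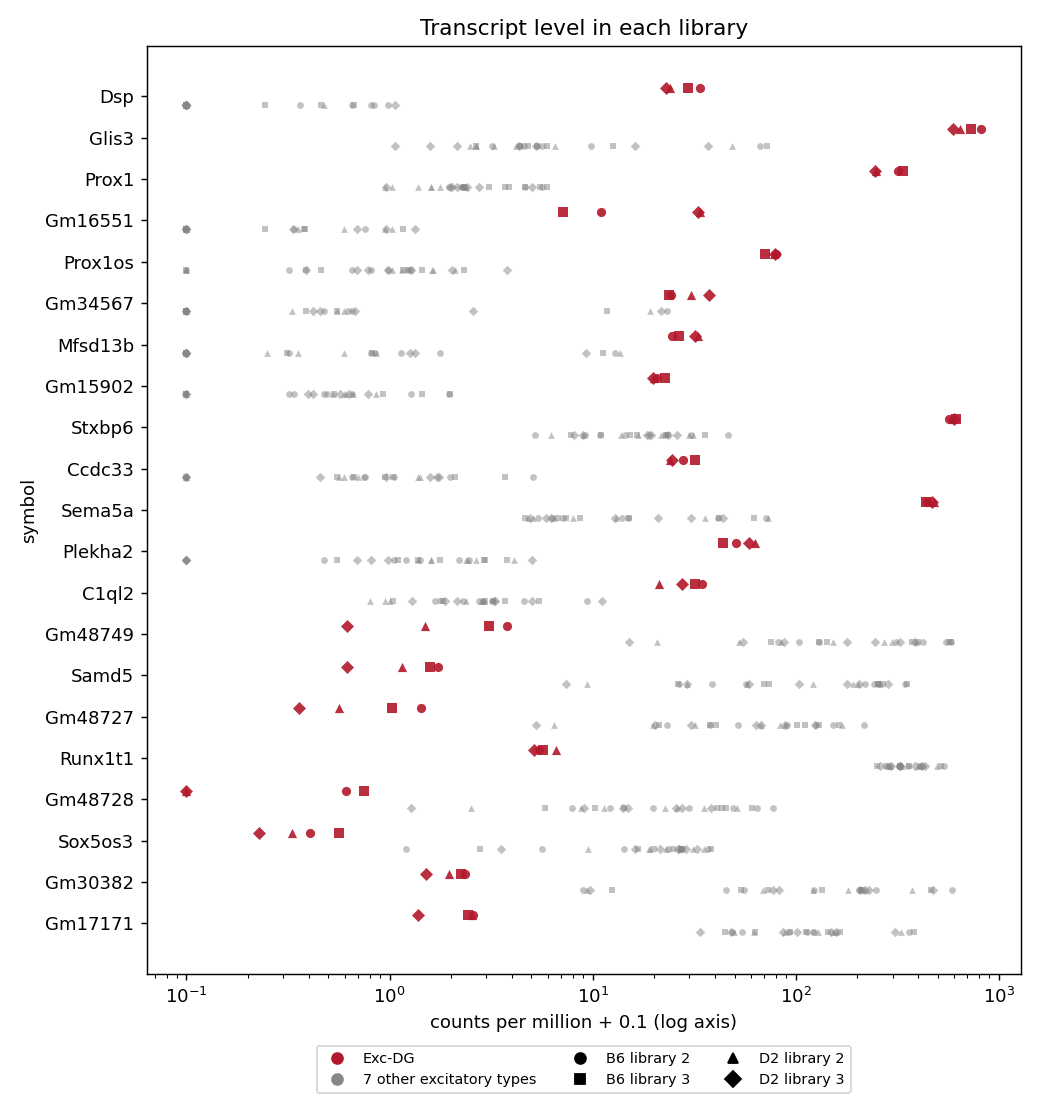
Transcript level in each library for the 13 symbols named as high and the 8 named as low in Exc-DG; the x axis gives CPM plus 0.1 on a log scale, red symbols are Exc-DG and grey symbols the 7 other excitatory types, with one marker shape per library. For Dsp the Exc-DG libraries lie at 22.8 CPM or above and all other columns at 0.963 CPM or below, and for Runx1t1 the order is turned, with Exc-DG at 6.51 CPM or below and all others at 250 CPM or above.

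The 12 symbols with the largest differences, among those called, highest in every library and at 20 CPM or more, were Dsp, Glis3, Prox1, Gm16551, Prox1os, Gm34567, Mfsd13b, Gm15902, Stxbp6, Ccdc33, Sema5a and Plekha2. Glis3, a Krüppel-like zinc finger factor, stood at 816, 728, 645 and 596 CPM. The other excitatory columns lay between 0.963 and 72.3 CPM, with the highest values in Exc-Cdh12, and the log2 difference was 6.77 (SE 0.07). The margin in every library over every other excitatory type was at least 3.32 on the log2 scale. Stxbp6, which encodes the SNARE-binding protein amisyn, stood at 569, 618, 588 and 600 CPM against 5.09 to 46.4 CPM. Its 4 Exc-DG values lay closer together than those of Glis3, and its log2 difference was 5.18 (SE 0.07). Sema5a, a transmembrane semaphorin of axon guidance, stood at 436 to 478 CPM in Exc-DG. Exc-CA3 was its next highest type, at 43.5 to 73.1 CPM. Plekha2, a PH domain protein that binds phosphoinositides, stood at 43.9 to 62.7 CPM against 4.91 CPM at most in the other excitatory columns. On the scale of all cell types it stood at 60.8 to 80.1 CPM in microglia and 46.4 to 65.9 CPM in Exc-DG.

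Mfsd13b, a predicted transporter of the major facilitator family, and the predicted gene Gm34567 were shared in part with Exc-CA3. Mfsd13b stood at 24.6 to 32.8 CPM in Exc-DG and 9.18 to 13.6 CPM in Exc-CA3. Gm34567 stood at 24.1, 23.8, 30.4 and 37.2 CPM in Exc-DG and 11.6 to 23.1 CPM in Exc-CA3, and its smallest margin within a library was 0.06 on the log2 scale. The median over the 28 other excitatory columns was 0.237 CPM for Mfsd13b and 0.304 CPM for Gm34567, far below both types. The noncoding Gm16551 stood at 10.9 and 7.07 CPM in B6 and 33.8 and 33.1 CPM in D2, all above the highest other excitatory column (1.23 CPM). Prox1os stood at 70.5 to 80.3 CPM against at most 3.69 CPM. It overlaps Prox1 on the other strand, Gm15902 lies within Stxbp6 on the same strand, and the sources used here do not state the counting's use of strand, so reads of such pairs may not be separable.

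The 8 lowest symbols were Gm48749, Samd5, Gm48727, Runx1t1, Gm48728, Sox5os3, Gm30382 and Gm17171, and 6 of them are noncoding. Runx1t1, a transcriptional corepressor, stood at 5.33, 5.58, 6.51 and 5.02 CPM in Exc-DG and between 250 and 535 CPM in all other excitatory columns. The log2 difference was -5.95 (SE 0.08), and in interneurons (Inh-MGE), on the scale of all cell types, it stood at 318 to 338 CPM. Samd5, a SAM domain protein, stood at 1.64, 1.49, 1.05 and 0.515 CPM against 7.29 to 352 CPM. Its highest columns were those of Exc-Gpc6, and its log2 difference was -6.40 (SE 0.22). Gm48749, Gm48727 and Gm48728 lie near Samd5, all 4 between positions 8903981 and 9675208 of chromosome 10 (GRCm38), and in each of them Exc-Gpc6 was highest too. Gm48728 rested on 12 counts in Exc-DG, all of them in B6.

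Transcription factors of forebrain excitatory neurons split in both directions. Of 24 on the list, 23 were tested, and 9 were called higher and 3 lower, against 5.57% and 6.26% of all symbols. The median log2 difference was 0.22. Besides Prox1, Glis3 and Rfx3, the factors Nfia, Zbtb20, Emx2, Bcl11b, Zeb2 and Nr3c2 were called higher. Nfia stood at 649, 616, 517 and 491 CPM against 5.47 to 306 CPM, a log2 difference of 3.13 (SE 0.09), and no other excitatory column reached the Exc-DG level. Zbtb20, a zinc finger factor of hippocampal identity, was not particular to Exc-DG: it stood at 2926 to 3238 CPM there and at 3113 to 3367 CPM in Exc-CA3, while the median over all 28 columns was 162 CPM. Bcl11b, which encodes Ctip2, stood at 248 to 292 CPM in Exc-DG and at 270 to 294 CPM in Exc-CA1-Fras1, and its log2 difference from the mean of all 7 types was 2.11 (SE 0.06). The call of Nr3c2, the mineralocorticoid receptor, was narrow (log2 difference 1.15, SE 0.06) and was lost without B6 library 3, D2 library 2 or D2 library 3. Those of Bcl11b, Zeb2 and Nr3c2 were lost when the other types were summed.

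Fezf2 and Bcl11a were among the factors called lower. Fezf2, a zinc finger factor of forebrain projection neurons, stood at 1.64, 1.67, 1.51 and 1.29 CPM in Exc-DG. It reached 51.6 to 58.4 CPM in Exc-CA1-Fras1 but only 0 to 1.70 CPM in Exc-Gpc6, and the log2 difference was -2.36 (SE 0.24). Bcl11a stood at 143 to 154 CPM in Exc-DG and at 264 CPM or more in every other excitatory column, a log2 difference of -1.26 (SE 0.05). Nfix and Tcf4 were not called, with log2 differences of 0.12 and -0.06.

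Genes of the granule neuron lineage and of immature neurons were called in both directions. Of 14 on the list, 11 were tested, with 2 called higher and 4 lower, where 5.57% and 6.26% of all symbols were. The median log2 difference was 0.07. Bhlhe22, a basic helix-loop-helix factor, was called higher at 17.6 to 21.6 CPM (log2 difference 1.82, SE 0.12). Mki67, whose protein marks proliferating cells, stood at 73.3, 79.5, 49.2 and 55.4 CPM against 6.80 to 34.9 CPM in other excitatory columns, a log2 difference of 1.81 (SE 0.06). Top2a, another gene of dividing cells, stood at 0.349 to 0.515 CPM in Exc-DG and did not pass the filter on low counts. Neurod6, Dcx and Sox4 were among those called lower. Neurod6 stood at 2.77, 5.49, 7.68 and 5.67 CPM against a median of 64.7 CPM elsewhere, a log2 difference of -3.25 (SE 0.13). The lowest other type, Exc-Cdh12, stood at 1.86 to 14.4 CPM and so overlapped Exc-DG. Dcx, doublecortin, the usual marker of young granule neurons, stood at 14.8 to 19.1 CPM in Exc-DG and at 23.9 to 91.0 CPM in every other excitatory column (log2 difference -1.49, SE 0.07).

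Mossy fibre genes were called higher for 7 of 12 and lower for 1, where 5.57% and 6.26% of all symbols were, with a median log2 difference of 1.41. The vesicle protein Synpr, synaptoporin, stood at 1133, 1059, 756 and 736 CPM in Exc-DG against 4.81 to 371 CPM, a log2 difference of 4.35 (SE 0.10). Slc30a3, the transporter that loads zinc into synaptic vesicles, stood at 139, 125, 142 and 138 CPM against 2.85 to 88.2 CPM (log2 difference 2.67, SE 0.06). C1ql3, a relative of C1ql2, stood at 511 to 630 CPM against 25.1 to 288 CPM (2.37, SE 0.05). Pdyn, the precursor of the opioid peptide dynorphin, was scarce in nuclei, at 2.56 to 3.86 CPM, but highest in Exc-DG in every library (log2 difference 4.22, SE 0.37). The calls of Bdnf (1.30, SE 0.12) and of Grik4 (1.21, SE 0.09) were less stable. The call of Bdnf was lost without either D2 library, and that of Grik4 without any 1 of the 4 libraries. Grik4, a kainate receptor subunit, stood at 362 to 454 CPM in Exc-DG and was higher in Exc-CA3, at 841 to 961 CPM. Nrxn3 was called lower, at 776 to 994 CPM against 1231 to 5228 CPM (log2 difference -1.51, SE 0.06), and was below every other excitatory type in each library.

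Among genes of excitability and tonic inhibition, 3 of 14 were called higher and 1 lower, where 5.57% and 6.26% of all symbols were. Gabrd, the delta subunit of extrasynaptic GABA-A receptors, stood at 40.2, 46.7, 46.9 and 48.9 CPM against 1.33 to 20.4 CPM, a log2 difference of 2.58 (SE 0.08). Gabra4, the alpha subunit that commonly joins it, stood at 163 to 193 CPM against 50.0 to 125 CPM (1.25, SE 0.05). Both were above every other excitatory type in each library, as were 8.01% of all symbols. Kcnj2, an inward rectifier potassium channel, was called higher (1.62, SE 0.25) from 2.23 to 4.88 CPM, although Exc-Gpc6 stood at 4.05 to 12.3 CPM and Exc-DG was highest in 0 of 4 libraries, and the call was lost without either D2 library. The remaining 10 genes were not called, among them Gabra5 (-0.29) and Kcnj6 (1.05).

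Of the desmosomal plaque genes, Dsp and Pkp2 were called higher, where 5.57% of all symbols were. Of the 5 tested, 3 were not called, and Pkp1 did not pass the filter. Pkp2, a plakophilin, stood at 88.7 to 101 CPM in Exc-DG and at 207 to 230 CPM in Exc-CA3, and it had no count in 1 other excitatory column. Its log2 difference of 1.28 (SE 0.10) turned to -0.21 when the other types were summed, and its call was lost without D2 library 2. Jup, plakoglobin, stood at 1.42 to 3.16 CPM in Exc-DG.

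**Figure D2:**
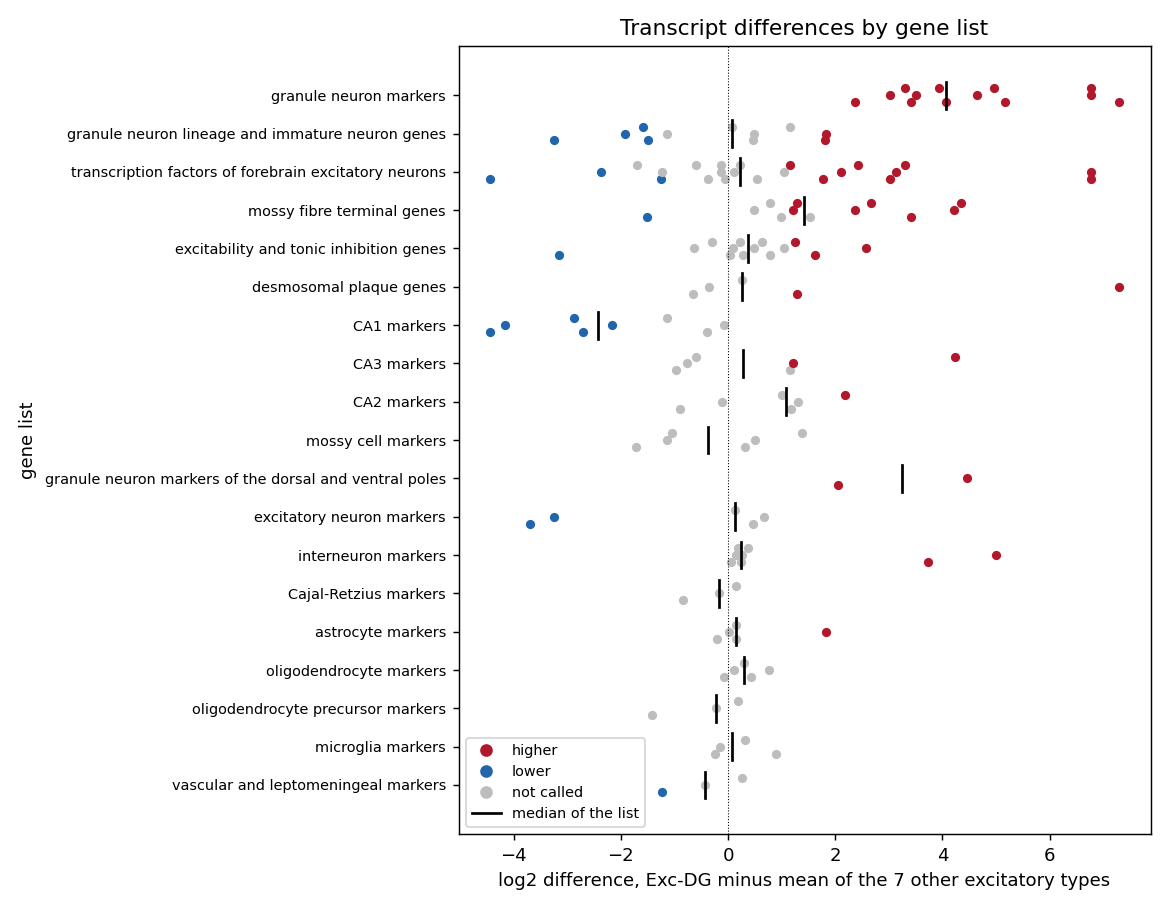
Log2 difference between Exc-DG and the mean of the 7 other excitatory types for each tested gene of 19 lists, one row per list; red points were called higher, blue points lower and grey points neither, and the black bar is the median of the list. The granule neuron markers have a median of 4.08 and the CA1 markers one of -2.43, while the glial and vascular lists have medians between -0.43 and 0.29. Galntl6, Fras1 and Camk2d on the CA1 list also name types in the mean.

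Markers of the neighbouring fields differed by list, where 5.57% of all symbols were called higher and 6.26% lower. Of 8 CA1 markers, 5 were called lower and 0 higher, with Mpped1, Pou3f1, Galntl6 and Camk2d among the 5. The Exc-DG columns summed to 202 to 356 CPM against 4484 to 5044 CPM in Exc-CA1-Galntl6. The list holds Galntl6, Fras1 and Camk2d, which also name types in the mean, so it is no independent comparison. None of the 8 was below every other excitatory type in each library. Exc-CA3 stood at 3.76 to 5.97 CPM for Mpped1 and 8.94 to 16.7 CPM for Camk2d. Exc-DG stood at 4.82 to 6.44 CPM and 11.4 to 17.6 CPM for these. For Galntl6, Exc-Cdh12 stood at 154 to 193 CPM and Exc-DG at 101 to 251 CPM. Of 6 CA3 markers, Iyd and Grik4 were called higher and 0 lower. Iyd, iodotyrosine deiodinase, stood at 4.54 to 7.18 CPM in Exc-DG and 6.78 to 9.88 CPM in Exc-CA3, with a median of 0.0885 CPM over the 28 columns. Summed over the CA3 list, Exc-DG stood at 703 to 782 CPM and Exc-CA3 at 1721 to 1966 CPM. The 6 CA2 markers had a median log2 difference of 1.09, and the values not called ran from -0.90 for Map3k15 to 1.31 for Amigo2. Of these 6, Pcp4 alone was called (log2 difference 2.18, SE 0.13), and it stood at 90.5 and 83.3 CPM in B6 and 25.5 and 27.6 CPM in D2. None of the 6 mossy cell markers was called. Calb2, Drd2 and Csf2rb2 stood under 1 CPM in each Exc-DG library, Nmb at 2.70 to 3.95 CPM, Calcrl at 4.42 to 11.9 CPM (log2 difference 1.38) and Ajap1 at 45.6 to 56.3 CPM (0.51). Lct and Trhr, which mark granule neurons of the dorsal and of the ventral pole, were both called higher. Lct stood at 18.8, 18.04, 9.42 and 9.79 CPM and Trhr at 48.8, 46.2, 21.7 and 19.3 CPM. Trhr reached 24.0 to 44.6 CPM in Exc-ENT, so that the D2 libraries of Exc-DG lay below that type, and its call was lost when the other types were summed.

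The vesicular glutamate transporter Slc17a7 was at 311 to 348 CPM in Exc-DG and was not called (log2 difference 0.14). Slc17a6, another vesicular glutamate transporter, was called lower at 0.513 to 0.901 CPM (-3.69, SE 0.32). This was not particular to Exc-DG: Exc-CA3 stood at 0 to 1.43 CPM, while Exc-Gpc6 stood at 53.8 to 70.5 CPM. Of 10 interneuron markers, 8 were tested, and Gad1 and Adarb2 were called higher, where 5.57% of all symbols were. Gad1, which encodes a GABA-synthesising enzyme, stood at 35.0, 35.9, 30.5 and 32.2 CPM in Exc-DG against 0 to 5.84 CPM in the other excitatory columns, a log2 difference of 3.73 (SE 0.14). On the scale of all cell types Inh-MGE interneurons stood at 164 to 200 CPM. Gad2 and Slc32a1, which interneurons express together with Gad1, stood at 1.67 to 3.37 CPM and 0.773 to 2.36 CPM in Exc-DG. They were at 230 to 245 CPM and 84.8 to 107 CPM in Inh-MGE. Adarb2, an RNA editing enzyme family member without known activity, stood at 1270, 1311, 903 and 872 CPM against 16.7 to 81.7 CPM (log2 difference 5.0018, SE 0.09). On the scale of all cell types it stood at 1416 to 1968 CPM in oligodendrocyte precursors and 913 to 1387 CPM in Exc-DG.

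Summed over each list, markers of glia and vascular cells stood far below their level in the cells they mark, and their part in the differences above was not tested. Summed over 5 oligodendrocyte markers, Exc-DG stood at 135 to 212 CPM against 69.0 to 206 CPM in the other excitatory columns and 14053 to 15789 CPM in oligodendrocytes. The 5 astrocyte markers summed to 223 to 243 CPM in Exc-DG, with Slc1a3 called higher (47.9 to 59.1 CPM, log2 difference 1.84, SE 0.10) and Aqp4, Gja1 and Gfap at 2.09 to 7.59 CPM. Of 4 microglial markers, P2ry12 was at 264 to 334 CPM in Exc-DG and at 104 to 240 CPM in the other excitatory columns, and at 666 to 1017 CPM in microglia on the scale of all cell types. It lies opposite Med12l on the other strand. Cx3cr1 stood at 23.1 to 26.7 CPM in Exc-DG, and Csf1r and C1qa at 1.86 to 5.15 CPM. The 3 precursor markers summed to 3.48 to 7.18 CPM in Exc-DG, and the 5 vascular ones to 20.4 to 30.01 CPM. Of 5 Cajal-Retzius markers, which summed to 9.14 to 15.2 CPM in Exc-DG, Lhx1 had no count there, and no glial, vascular or interneuron marker was at 0.

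Against the 6 non-excitatory types used, 2580 of 17753 symbols (14.5%) were called higher in Exc-DG and 1975 (11.1%) lower. Above every other one of the 14 cell types used, in each library, were 533 symbols (3.0%). The 5 with the largest margin were Gm44724, Vwa3b, Dsp, Ccdc33 and Plk5. Vwa3b, a von Willebrand A domain protein, stood at 50.9, 50.0, 24.7 and 21.9 CPM. Its margin over every other type used was at least 2.50 on the log2 scale in every library. Dsp had a margin of 2.33 and Plk5, a polo-like kinase without kinase activity, one of 2.11. Several of the largest differences among excitatory neurons were shared with glia. On the scale of all cell types, Prox1 stood at 176 to 221 CPM in oligodendrocytes, Glis3 at 419 to 482 CPM in astrocytes, Stxbp6 at 340 to 549 CPM in oligodendrocytes and Sema5a at 304 to 369 CPM in oligodendrocyte precursors. Dock10, a guanine nucleotide exchange factor on the granule marker list, was higher in oligodendrocytes, at 2572 to 2940 CPM, than in Exc-DG. The margin of Prox1 over all types was accordingly 0.23 on the log2 scale, although its margin over excitatory types was 5.52.

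Whether the contrast between types differed between the strains was asked with the term for strain by type. Of 16531 symbols, 498 (3.01%) passed at an adjusted p under 0.05 in edgeR. The term, D2 minus B6, was positive for 271 and negative for 227. Its sign does not tell which strain held the wider difference. These counts rest on few libraries. Without the library as a replicate block they were 160 and 127, without D2 library 2 they were 110 and 70, and without D2 library 3 they were 135 and 80, where the lone D2 library was taken to vary like the B6 libraries. None of the 20 symbols named above as the 12 highest and 8 lowest passed this test, although some had columns without counts, where the term has no usable error. Of the 562 symbols highest in Exc-DG, 46 passed (8.19%).

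The 5 symbols of lowest p were Sv2c, Gm48742, Fstl4, Fbn1 and Arhgef4. Their p-values rest on 2 libraries per strain, and the columns of all excitatory types in these libraries give the error. They do not measure how far more animals of a strain would differ. Sv2c, a synaptic vesicle glycoprotein, stood at 103, 108, 80.5 and 81.4 CPM in Exc-DG, and in the other excitatory types at 2.09 to 29.2 CPM in B6 and 50.0 to 80.5 CPM in D2. The strain term was -3.26 (SE 0.10, edgeR adjusted p = 1.83e-24), since the contrast was wide in B6 and narrow in D2. Fbn1, the matrix protein fibrillin, moved within Exc-DG itself, from 30.4 and 28.2 CPM in B6 to 1.28 and 1.03 CPM in D2 (strain term -4.51, SE 0.26, adjusted p = 1.68e-15). Arhgef4, a guanine nucleotide exchange factor, stood at 136 and 112 CPM in B6 and 44.0 and 39.9 CPM in D2 (-1.56, SE 0.11, adjusted p = 5.69e-13).

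Accessibility was measured for each gene as the counts in peaks that overlap its body or the 2 kb before its start. Among 26472 genes, 772 (2.92%) were called higher in Exc-DG and 912 (3.45%) lower. In the window from 2 kb before to 500 bases after the start alone, the calls were 631 (2.87%) and 649 (2.95%) of 22006 genes. Prox1 was at 66.2, 70.5, 69.5 and 73.7 accessibility CPM against 5.93 to 13.3 in the other excitatory columns, a log2 difference of 3.01 (SE 0.05). C1ql2 was at 48.5 to 51.9 against 5.24 to 21.7 (1.94, SE 0.05), and Dsp was at 25.3 to 32.5 against 6.03 to 14.9 (1.45, SE 0.06). For all 3 the log2 difference in accessibility was smaller than that in transcripts.

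Of the 13 granule neuron markers, 9 were called higher in accessibility and 0 lower, with a median log2 difference of 1.24 against 0.01 over all genes. The 4 that were not called were C1ql3 (0.55), Rfx3 (0.69), Trpc6 (1.08) and Plk5 (1.09). In the window around the start alone, Trpc6 was called higher (1.89, SE 0.08) and Maml2 was not called (1.04, SE 0.04). Emx2, a homeobox factor at only 3.81 to 7.68 CPM in transcripts, had 48.0 to 49.9 accessibility CPM against 1.33 to 33.3, a log2 difference of 2.17 (SE 0.06). Gad1 was called higher as well (77.2 to 87.2 against 12.6 to 40.4, log2 difference 1.67, SE 0.04). Runx1t1 was called lower, at 68.6 to 75.8 accessibility CPM against 137 to 224 (-1.37, SE 0.03), and so was Neurod6, at 2.87 to 4.05 against 4.82 to 34.0 (-2.72, SE 0.09). Of the mossy fibre genes, 2 of 12 were called higher in accessibility (C1ql2 and Slc30a3), and of the excitability genes 0 of 14 were called, where 2.92% of all genes were called higher and 3.45% lower. At those shares a list of this length may hold no call. In the window around the start, 2.87% of all genes tested there were called higher. Of the mossy fibre genes, C1ql2 (1.97, SE 0.05), Synpr (1.81, SE 0.04) and Pdyn (1.23, SE 0.09) were called higher there, and Slc30a3 had no value. The accessibility calls of Gm16551 (1.44, SE 0.13) and Lct (1.21, SE 0.06) were lost without either D2 library and without either B6 library, respectively. That of Mfsd13b (1.11, SE 0.04) was lost without B6 library 3 or D2 library 2. That of Zbtb20 (1.08, SE 0.03) was lost without B6 library 3 or D2 library 3, and in the window around its start the log2 difference was -0.0038.

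Transcripts and accessibility were set side by side for 15437 symbols, bearing in mind that the chromatin labels came from gene accessibility matched to transcripts. Of 856 symbols with a transcript called higher, 123 (14.4%) were called higher in accessibility and 0 lower, and of 970 with a transcript called lower, 176 (18.1%) were called lower and 7 higher. Of the 13611 symbols with neither transcript call, 0.632% were called higher in accessibility and 0.86% lower. Most symbols lay on the same side: 795 of the 856 (92.9%) had an accessibility difference above 0, against 83 of the 970 (8.56%). Across symbols, which are not independent replicates, the correlation of the differences was 0.60. The median accessibility difference of the 856 symbols was 0.53 on the log2 scale.

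**Figure D3:**
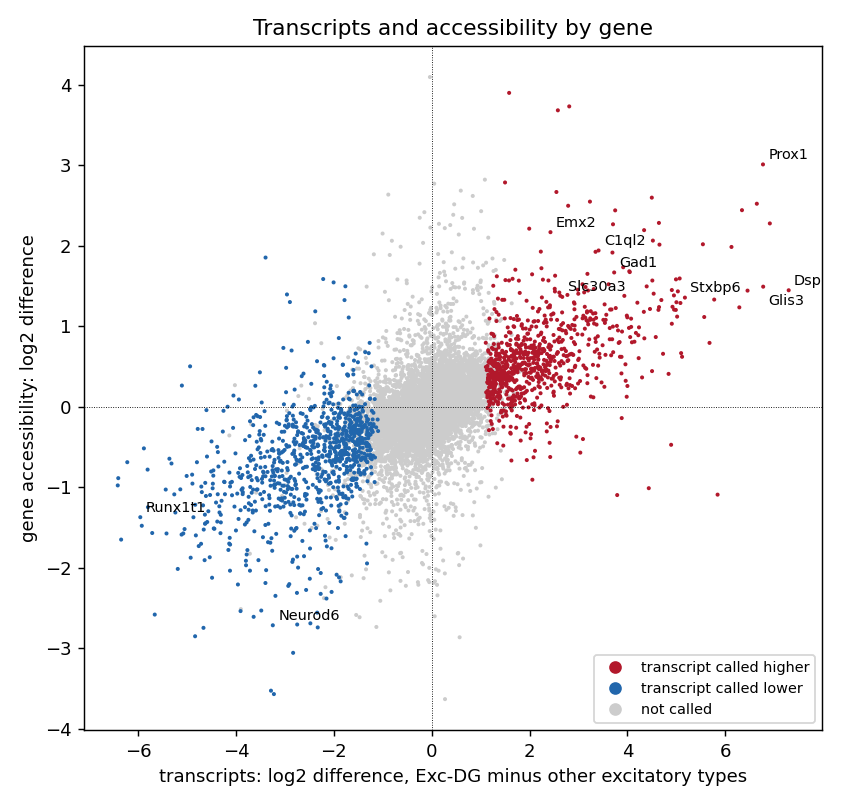
Each point is one of 15437 symbols, with the log2 difference of transcripts between Exc-DG and the other excitatory types on the x axis and that of gene accessibility on the y axis; red marks transcripts called higher and blue those called lower. Of the red points, 92.9% lie above 0 on the y axis, and Prox1 is at 6.77 and 3.01.

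Of 300294 peaks tested, 34672 (11.5%) were called higher in Exc-DG and 24341 (8.11%) lower. At Prox1, 10 of 10 tested peaks were called higher, and at Prox1os 12 of 13, with some peaks shared by the pair. At C1ql2 2 of 2 were called higher, at Dsp 2 of 4, and at Glis3 57 of 80. None of the peaks at these genes was called lower. The intronic Prox1 peak printed above, 425 bases long, had 5.74, 7.15, 7.53 and 7.54 CPM in Exc-DG and at most 1.01 CPM elsewhere, a log2 difference of 4.47 (SE 0.18). The Prox1os peak had 7.82, 8.36, 9.545 and 10.2 CPM against at most 1.06 CPM (4.44, SE 0.16). The Glis3 peak had 9.56, 10.97, 9.31 and 10.1 CPM against at most 3.045 CPM (3.65, SE 0.14). These 3 peaks were picked for the largest difference at their gene. At the start of Prox1 Exc-DG had 21.2 to 24.2 CPM against 1.52 to 7.15 CPM (2.63, SE 0.08), at C1ql2 39.5 to 43.2 against 3.86 to 16.4 CPM (2.07, SE 0.06), and at Dsp 15.2 to 19.5 against 3.41 to 9.13 CPM (1.77, SE 0.08). The peak at Gm16551 had 6.97 and 6.48 CPM in B6 and 14.6 and 16.8 CPM in D2, and its transcript was also higher in both D2 libraries than in both B6 libraries.

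**Figure D4:**
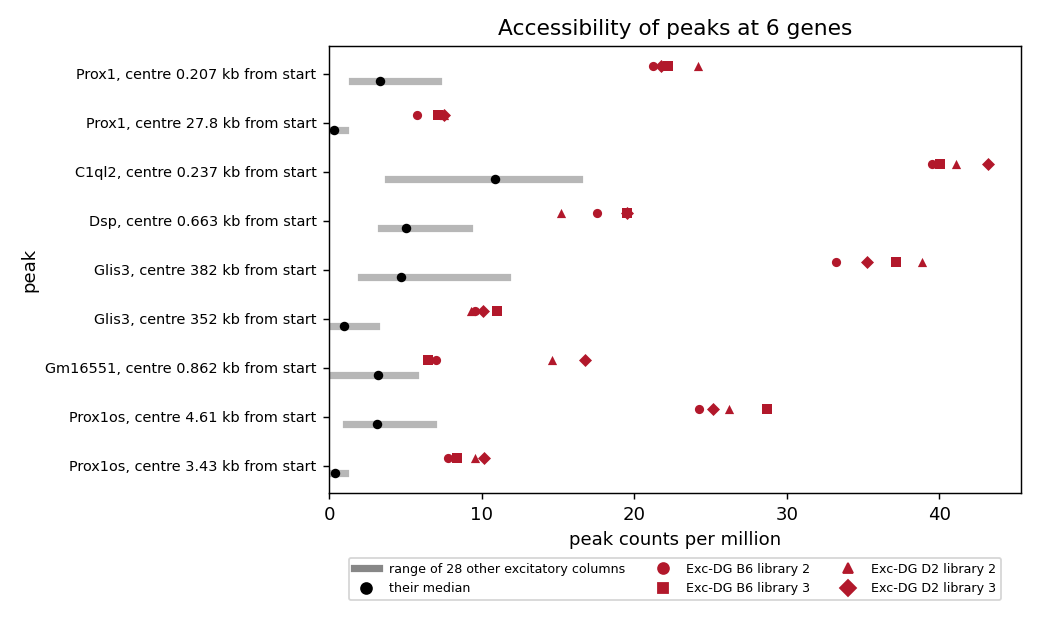
Peak counts as CPM at 6 genes; red symbols are the 4 Exc-DG libraries, the grey bar spans the 28 columns of other excitatory types and the black dot is their median. In each of the 9 peaks every Exc-DG library lies to the right of the grey bar, with 5.74 CPM or more in the intronic Prox1 peak against at most 1.01 CPM elsewhere.

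Letters shared by the peaks were counted in the central 300 bases of 300288 peaks, on both strands. CAGATG was in 34.4% of the peaks called higher in Exc-DG, 35.8% of those called lower and 31.4% of those not called, so it did not set the higher peaks apart from the lower. The AP-1 letters TGANTCA were in 10.8% of the peaks called higher, 22.9% of those called lower and 14.2% of those not called. CAGCTG, another E-box, was in 17.8%, 18.8% and 21.0%, and the CRE letters TGACGTCA were in 0.159%, 0.378% and 0.394%. The palindromic NFI motif was rare, at 0.0779%, 0.0205% and 0.0489%, and one form of the MEF2 motif was in 0.309%, 0.267% and 0.2%. The mean GC content was 44.3%, 43.5% and 47.5% in the same order, and its part in these shares was not tested. None of the 6 sequences printed above held a match to TGANTCA.

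**Figure D5:**
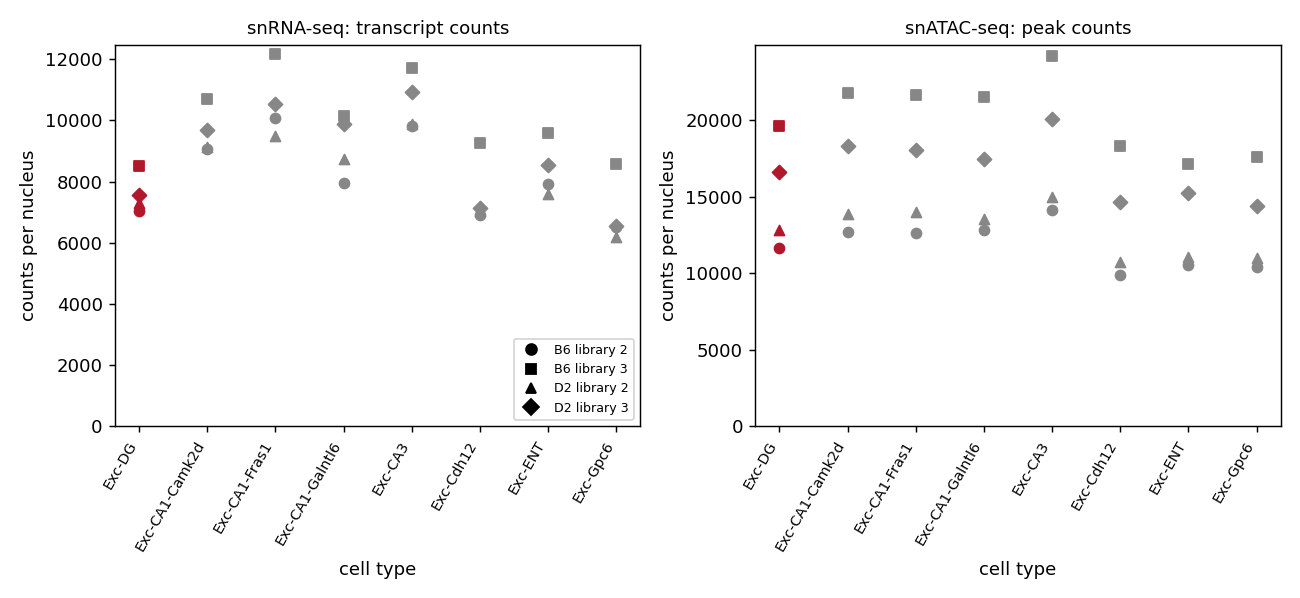
Counts per nucleus of the 8 excitatory types in snRNA-seq (left) and snATAC-seq (right), with one marker shape per library and Exc-DG in red; both y axes start at 0. In snRNA-seq Exc-DG lies between 7023 and 8497 counts per nucleus, and in snATAC-seq between 11670 and 19620.

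Exc-DG nuclei held fewer transcript counts than the average of the other excitatory types in all 4 libraries. Counts per nucleus were 7023, 8497, 7305 and 7570 against means of 8320, 10309, 8288 and 9038 over the 7 other types. Of these types, 2 lay below Exc-DG in B6 library 2, D2 library 2 and D2 library 3, and 0 in B6 library 3. The mean log2 difference was -0.22 ± 0.04 (SD, n = 4), with a two-sided exact sign-flip permutation p = 0.125, the smallest that 4 libraries allow. In snATAC-seq the counts per nucleus were 11670, 19620, 12791 and 16596 against 11867, 20326, 12735 and 16872, a mean log2 difference of -0.01 ± 0.02 (SD, n = 4, exact sign-flip permutation p = 0.5). In each snATAC-seq library 3 of the 7 other types lay below Exc-DG. CPM values are relative to the column total, and the part of depth per nucleus in them was not tested.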

How the data were processed

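The tables hold whole-number counts that the authors summed over the nuclei of each named type and library and deposited without normalisation: transcripts per gene symbol and snATAC-seq fragments per peak. Per the submitters' processing notes and the study's methods, reads were aligned with Cell Ranger 6.0.2 (introns kept) and Cell Ranger ATAC 2.0.0 to mm10, with DBA/2J variants put into the genome for D2. Nuclei were filtered, cleared of doublets, integrated, clustered and named with Seurat 4.0.5, and chromatin types were transferred from the transcripts. The annotation release is not given in the sources used here.

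The tables number the libraries 2 and 3 and the labels number replicates 1 and 2, so each column was placed in a strain and a library, and on no single sample. A total of 12 transcript and 28 peak columns were not used. The strains were counted on different gene lists, so a symbol needed at least 10 counts in each strain, and edgeR's filterByExpr at a minimum count of 10 followed. Counts were TMM-normalised and fitted in edgeR 4.0.16 (limma 3.58.1, R 4.3.3) with the quasi-likelihood method and the library as a block, since all types of a library come from the same nuclei suspension. Calls used glmTreat against a log2 difference of 1 with Benjamini-Hochberg adjustment over all features. The strain term used the quasi-likelihood F test. Fits were tested on simulated data with known changes. Counts per nucleus were compared with an exact sign-flip permutation test over 4 libraries. Gene positions come from GENCODE annotation and printed sequences from RefSeq, both on GRCm38. In the edgeR fits, p-values measure only the spread left among columns once type and library are fitted. Those of the permutation test measure only the spread between these libraries.

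The genes named were the 12 highest and 8 lowest called symbols at 20 CPM or more (in Exc-DG, or in the other types for the lowest) that held in every library, the 5 of largest margin over all types, the 5 of lowest p in the strain term and the listed markers. The members and the lists were chosen with earlier results of these data known. DESeq2 1.42.0, other size factors, filters and windows, and leaving out each library were tried as alternatives. Code used Python 3.11.15. Some members of the lists are counted but not reported by name here.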

Additional observations from a re-analysis of the deposited data

Results flagged for a closer look

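For 5 symbols the difference between Exc-DG and the other excitatory types was itself different in the strains, by the strain by type term in edgeR (D2 minus B6, log2). For Sv2c, a synaptic vesicle glycoprotein, the term was -3.26, with a difference of 3.66 in B6 and 0.49 in D2. Gm48742 gave 2.90 (SE 0.15), from -4.10 in B6 to -1.28 in D2, and stood at 8.51, 7.16, 32.0 and 32.6 CPM in Exc-DG. Fstl4, a follistatin-like protein, gave -2.06 (SE 0.12), from 1.12 to -0.93, at 208, 190, 49.5 and 52.0 CPM. Fbn1 gave -4.51, from 0.44 to -3.66. Arhgef4 gave -1.56, from 2.05 to 0.50. The strains were aligned to different versions of the genome, and the part of that in these values was not tested.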

How the results depend on the processing

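Of 3364 values for single genes under an alternative setting, 3237 kept their direction and their side of the threshold, 67 newly passed it, 57 no longer did and 3 turned direction. Those 3 were the transcript difference of Pkp2 with the other types summed (-0.21) and the accessibility of Slc6a13 (-1.81) and Zbtb20 (-0.0038) in the window around the start. The cause was not tested. Counts of transcripts called higher and lower were 5007 and 4389 when tested against 0 instead of 1. They ranged from 805 to 833 and from 875 to 954 without 1 library, and were 709 and 827 with DESeq2. Without the library as a replicate block they were 729 and 903. In the strain term, no replicate block gave 160 symbols with a positive and 127 with a negative term. DESeq2 gave 218 and 147. Leaving out 1 library gave 110 to 273 and 70 to 197, with the lowest counts without D2 library 2. A margin of at least 1 on the log2 scale left 149 symbols above and 135 below all other excitatory types in each library. With the other types summed, the log2 difference in counts per nucleus, snRNA, was -0.28, and that in counts per nucleus, snATAC, was -0.0871. Leaving out excitatory types of under 50 nuclei removed none and gave no new value. Transcripts at a few counts, such as Gm48728 and Top2a, are limited by depth.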
